A study of Sus scrofa with 2 samples.

Results

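Pyruvate, the end product of glycolysis, has a choice of routes in a muscle fiber, and 6 genes that act at this branch were followed in spatial transcriptomes (ST) of pig psoas major (PM) muscle: PDK4, PDHA1, PDHB, DLD, LDHA and LDHB. The members were listed by symbol, and all 6 were found among the 31780 genes of the feature lists, each with at least 1 unique molecular identifier (UMI) in each section. The study placed 1 cryosection of PM muscle from each of 2 female Landrace pigs on separate capture areas of the same Visium slide, so there was 1 group with 2 samples (sections 1 and 2) and no treatment or genotype contrast. The sections were 15 µm thick. A Visium spot is a small region that may hold parts of several fibers and of the tissue between them, so a spot is not a cell, and the age of the pigs was not given in the labels. Per the methods, animals went without feed on the night before slaughter. There was no fed group, so a role of feeding in the levels was not tested.

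The myosin heavy chain of a myofiber gives its type, with MYH7 in slow-twitch type I, MYH2 in fast-twitch oxidative type IIA and MYH4 in fast-twitch glycolytic type IIB fibers. MYH1, the myosin of type IIX fibers, took no part in the bins used here, so such fibers could not be told apart. In the cytosol, lactate dehydrogenase turns pyruvate into lactate and back; LDHA encodes the M subunit, which is abundant in fast muscle, and LDHB encodes the H subunit, which is abundant in heart and slow muscle. In mitochondria, the pyruvate dehydrogenase complex turns pyruvate into acetyl-CoA, with PDHA1 and PDHB encoding the alpha and beta subunits of its E1 component and DLD encoding the E3 component, which it shares with other 2-oxoacid dehydrogenases. PDK4 encodes a kinase that phosphorylates E1 alpha and so switches the complex off, and its transcript is known in mammals to increase with fasting and fatty acid use.

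Before any level was read, the LDHB row had to be checked against the genome, because the RefSeq annotation of Sscrofa11.1 carries 2 protein-coding loci under that symbol. The first lies on chromosome 5 (51810932 to 51831218, plus strand) with 8 exons, and the second on chromosome 2 (12988754 to 12990033, minus strand) is a single-exon copy. The copy matched the spliced chromosome 5 transcript at 1269 of 1280 aligned bases (99.1%), without a gap. The last coding stretch of the chromosome 5 gene (chr5:51830850-51831017, plus strand) and its match in the copy (chr2:12988950-12989117, minus strand) are shown because short 3′-end reads are assigned to a gene by sequences such as these, with capitals at the 2 of 168 bases that differed.
LDHB chromosome 5: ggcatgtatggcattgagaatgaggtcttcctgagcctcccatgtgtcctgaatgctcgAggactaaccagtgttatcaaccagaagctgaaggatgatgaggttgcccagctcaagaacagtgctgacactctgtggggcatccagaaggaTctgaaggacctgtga
LDHB chromosome 2: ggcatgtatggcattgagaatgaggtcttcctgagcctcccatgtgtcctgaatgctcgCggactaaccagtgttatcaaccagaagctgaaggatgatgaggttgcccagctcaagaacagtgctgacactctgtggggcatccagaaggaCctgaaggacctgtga

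The deposited files gave the LDHB row (ENSSSCG00000032557) without coordinates, and they did not say which locus it covers. In the feature list the row stood 1 row after OR9I1 and 6 rows before CTNND1. RefSeq places CTNND1 and the named genes that follow it (BTBD18, SELENOH, TMX2, MED19, ZDHHC5 and CLP1) on chromosome 2. The row held 5 UMIs in section 1 and 8 UMIs in section 2. LDHB is therefore reported here as the deposited row only. RefSeq places KCNJ8 and GYS2 on either side of the chromosome 5 LDHB locus, with only a pseudogene beside it in between. Between KCNJ8 and GYS2 in the feature list stood U6 (ENSSSCG00000034143) and ENSSSCG00000038537 without a symbol, both with 0 UMIs in every bin. Also between them stood a row without a symbol, ENSSSCG00000000576, which no table used here pairs with a gene name. This row was singled out after its values were seen. It held 26, 75, 82, 233 and 667 UMIs along the bins of section 1 described below, and 40, 104, 130, 392 and 635 UMIs in section 2. It was thus far more abundant than the row named LDHB. It was the only row between KCNJ8 and GYS2 that held UMIs, and LDHB is the only protein-coding gene that RefSeq places there. No coordinates were given for the row. Whether it covers the chromosome 5 LDHB locus was therefore not settled, and it was not counted as LDHB.

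The other members are single loci under their symbols in RefSeq. PDK4 (ENSSSCG00000015334) and DLD (ENSSSCG00000015443) lie on chromosome 9, at 75246956 to 75260134 and at 107642129 to 107668443. PDHA1 (ENSSSCG00000023643) lies on chromosome X at 15699924 to 15718908, PDHB (ENSSSCG00000025881) on chromosome 13 at 40161519 to 40167502, and LDHA (ENSSSCG00000013366) on chromosome 2 at 40814163 to 40827284.

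After filtering, section 1 kept 2429 spots with a median of 929 UMIs (53 to 7431) and section 2 kept 2878 spots with a median of 1350.5 UMIs (89 to 9200). Spots in which the 3 myosins MYH7, MYH2 and MYH4 summed to 5 UMIs or more were placed into 5 bins by the fraction of those UMIs that came from MYH7, the MYH7 share (0 to 0.2, above 0.2 to 0.5, above 0.5 to below 0.75, 0.75 to below 0.9, and 0.9 to 1), which took 1849 spots of section 1 and 2436 of section 2. UMIs were summed per section and bin, which gave 10 sums, and levels are UMIs per 1000000 UMIs of that sum, written CPM, with exact 95% Poisson intervals that cover counting error only. The 5 bins held 398, 499, 221, 271 and 460 spots in section 1 and 576, 748, 291, 367 and 454 spots in section 2. The depth climbed with the MYH7 share: the median was 3185.5 UMIs per spot in the MYH7-rich end bin and 570 in the MYH7-poor end bin of section 1, and 3712 against 742 in section 2. As a check of the bins, the 4 slow contractile genes (TNNT1, TNNI1, MYL2, MYL3) were all higher and the 4 fast ones (TNNT3, TNNI2, TNNC2, MYLPF) all lower at the MYH7-rich end. A share from few myosin UMIs is coarse, and 222 spots of section 1 and 390 of section 2 lay within 0.05 of the 0.2 limit, and 316 and 419 within 0.05 of the 0.9 limit.

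The members divided along the MYH7 share. PDK4, PDHA1 and DLD were higher in the MYH7-rich end bin (share 0.9 to 1) than in the MYH7-poor end bin (share 0 to 0.2), LDHA was lower, and PDHB did not pass the test. Of the 5 members that passed the filter on low counts, 3 were called higher and 1 lower by edgeR's quasi-likelihood test with section as a block and Benjamini-Hochberg adjustment over 4820 genes, at a threshold of 0.05. Of all genes tested, 23.6% were called, 11.3% higher and 12.3% lower. The median log2 fold change of the 5 members was 0.84, beside -0.01 for all genes tested. The sums come from 2 pigs, so these p-values do not measure the spread among pigs in general. The fit had 4 residual and 962 prior degrees of freedom, so the spread used for each gene came almost wholly from that shared over all genes. Fewer fibers of a type in a spot and less RNA per fiber cannot be told apart.

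**Figure D1:**
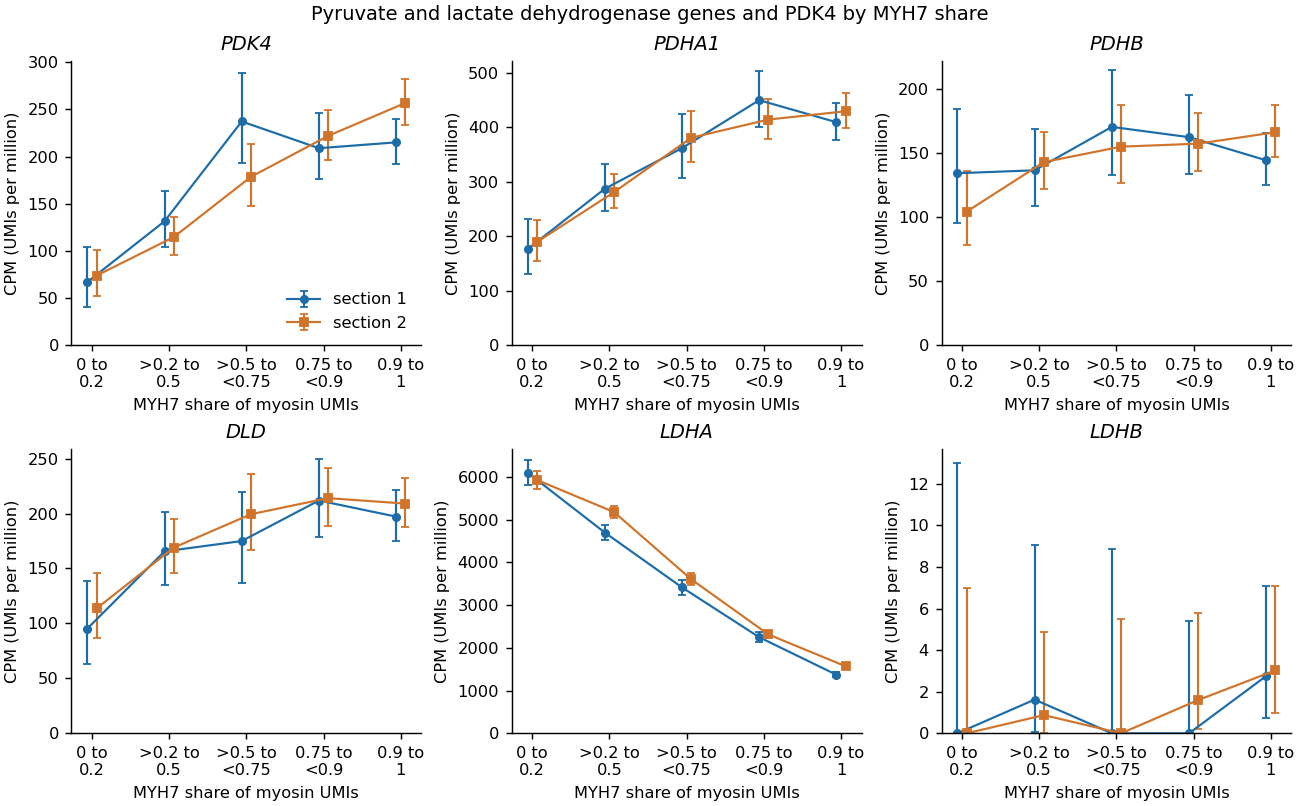
CPM (UMIs per 1000000 UMIs, vertical axes, from 0) of the 6 genes in 5 bins of the MYH7 share of MYH7, MYH2 and MYH4 UMIs (horizontal axes), for section 1 (circles) and section 2 (squares), with exact 95% Poisson intervals as bars. LDHA stood at 6100 and 5929 in the lowest bin and at 1371 and 1569 in the highest. PDK4, PDHA1 and DLD were lowest in the lowest bin of each section, and the deposited LDHB row stayed at or below 3.03.

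LDHA had the largest change of the members in the fit of all binned spots. In section 1 its level was 6100, 4698, 3415, 2250 and 1371 CPM from the lowest to the highest bin. In section 2 it was 5929, 5178, 3604, 2313 and 1569 CPM over the same bins. Every bin lay below the one before it in both sections, and the intervals of the end bins were far apart (1311 to 1432 in the MYH7-rich bin against 5816 to 6395 in the MYH7-poor bin of section 1). The log2 fold change between the end bins was -2.12 (SE 0.05, edgeR adjusted p = 1.02e-216), which is 4.34-fold lower in MYH7-rich spots. The gradient did not rest on a few spots: the median LDHA level per spot was 5623, 4706, 3466, 2103 and 1205 CPM along the bins of section 1 and 5410, 5058, 3411, 2154 and 1500 in section 2.

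LDHA was also the only member that passed the test at each of the 4 steps between neighbouring bins. The log2 changes were -0.40 into the second bin, -0.56 into the third, -0.55 into the fourth and -0.60 into the fifth, and all 4 passed the edgeR test (the largest adjusted p was 4.77e-14). The share of all tested genes called in either direction was 3.17%, 5.19%, 5.29% and 2.18% at these steps. Thus LDHA differed even between the bins of 0.75 to below 0.9 and of 0.9 to 1. PDHA1, PDHB and DLD did not pass the test at that step (log2 changes 0.01, 0.01 and -0.02).

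The fall of LDHA was a fall relative to the other UMIs of the same spots. Per 100 spots, LDHA gave 434, 580, 645, 568 and 432 UMIs along the bins of section 1. In section 2 it gave 544, 791, 832, 786 and 570 UMIs per 100 spots. On this scale LDHA peaked in the middle bin of both sections and was about equal at the ends, with a log2 fold change of 0.03 (SE 0.08, edgeR adjusted p = 0.680) when the sums were scaled by their number of spots. With that scaling the median over all genes became 2.12 on the log2 scale, so LDHA lay below the median gene by a similar amount on both scales. In spots restricted to 1000 to 2500 UMIs, the log2 fold change of LDHA was -1.79 (SE 0.09, edgeR adjusted p = 4.10e-47).

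**Figure D2:**
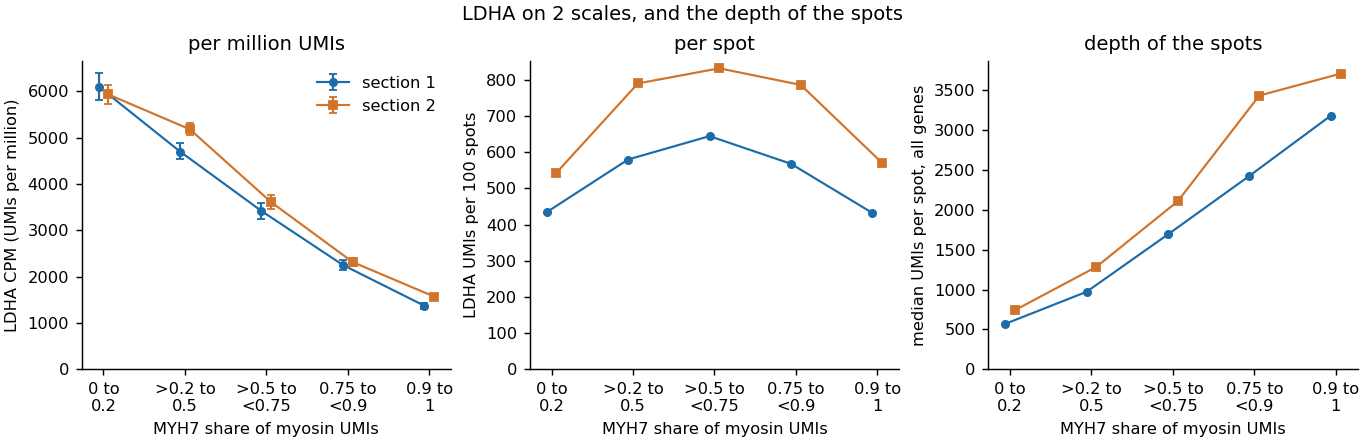
LDHA by MYH7-share bin in section 1 (circles) and section 2 (squares): CPM with exact 95% Poisson intervals (left), UMIs per 100 spots (middle), and the median UMIs per spot over all genes (right), all axes from 0. As a share of UMIs LDHA was lower in each higher bin, whereas per 100 spots it was 432 and 570 at the MYH7-rich end against 434 and 544 at the MYH7-poor end.

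The LDHB row was close to empty in every bin. It held 0, 1, 0, 0 and 4 UMIs along the bins of section 1 and 0, 1, 0, 2 and 5 UMIs in section 2, and it did not pass the filter for a test. The MYH7-rich end bin had 2.76 and 3.03 CPM in sections 1 and 2, whereas a count of 0 in the MYH7-poor end bin allows up to 10.6 and 5.68 CPM (3 UMIs of each sum), so no difference was detectable at this depth. The LDHA share of the UMIs of LDHA and of this row was 99.8% in the MYH7-rich end bin (exact 95% binomial interval 99.5% to 99.9% in section 1 and 99.6% to 99.9% in section 2) and 100% in the MYH7-poor end bin (lower bounds 99.8% in section 1 and 99.9% in section 2). This share leaves out the unnamed row ENSSSCG00000000576 and does not measure the balance of the M and H subunits.

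The unnamed row followed the MYH7 share closely. It was measured at 91.7, 122, 197, 340 and 460 CPM along the bins of section 1 and at 75.7, 91.1, 193, 314 and 385 CPM in section 2, higher in each bin than in the one before. For each of its UMIs, LDHA gave 66.5, 38.6, 17.4, 6.61 and 2.98 UMIs along the bins of section 1 and 78.3, 56.9, 18.6, 7.36 and 4.08 UMIs in section 2. Between the end bins ENSSSCG00000000576 had a log2 fold change of 2.25 (SE 0.16, edgeR adjusted p = 8.44e-41). Were this row LDHB, the shares above would not hold.

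PDK4, the kinase that switches the complex off, had the largest increase among the members in the fit of all binned spots, although not in spots of 1000 to 2500 UMIs, where PDHA1 changed more. In section 1 it was measured at 67.0, 131, 237, 209 and 215 CPM along the bins, from 19, 81, 99, 143 and 312 UMIs. In section 2 it was measured at 73.9, 115, 179, 222 and 257 CPM, from 39, 131, 120, 277 and 424 UMIs. The end bins did not overlap, with intervals of 192 to 240 in the MYH7-rich bin against 40.4 to 105 in the MYH7-poor bin of section 1, and of 233 to 283 against 52.5 to 101 in section 2. The log2 fold change was 1.64 (SE 0.18, edgeR adjusted p = 2.74e-17), a 3.11-fold higher level, and 96.5% of the genes tested had a lower value.

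The sections differed in where the PDK4 level flattened. In section 1 the level was highest in the middle bin, and in section 2 in the last bin. Between neighbouring bins the test passed only for the step into the third bin (log2 change 0.67, SE 0.15, edgeR adjusted p = 5.56e-04), whereas the first step was 0.63 (SE 0.22, adjusted p = 0.0900) and the last steps were 0.17 each. Spots outside the bins, which had fewer than 5 myosin UMIs, held only 4 and 8 PDK4 UMIs in sections 1 and 2, or 26.9 and 61.1 CPM.

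The PDK4 result weakened in a narrower window of depth. Spots of 1000 to 2500 UMIs still differed in depth, with a median of 1926 UMIs in the MYH7-rich end bin against 1245 in the MYH7-poor end bin of section 1, and 1915 against 1437 in section 2. In this window PDK4 had 176 and 134 CPM in the MYH7-rich end bin, against 68.0 and 99.97 in the MYH7-poor end bin of sections 1 and 2, from 36 and 18 UMIs against 7 and 25. The log2 fold change was then 0.72 (SE 0.34, edgeR adjusted p = 0.142), and the call was lost. Without the 25% of spots richest in markers of other cell types it was 2.04 (SE 0.24, adjusted p = 4.04e-12).

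PDHA1, the E1 alpha subunit that PDK4 phosphorylates, was also higher at the MYH7-rich end. Section 1 gave 176, 287, 362, 450 and 410 CPM, and section 2 gave 189, 281, 381, 414 and 430 CPM. The sections lay close together in every bin and both levelled off from a share of 0.75. The log2 fold change between the end bins was 1.09 (SE 0.12, edgeR adjusted p = 2.91e-16), or 2.13-fold. The first step passed the test (log2 change 0.49, SE 0.14, adjusted p = 0.0200), the second and the third were 0.33 (adjusted p = 0.0535) and 0.27 (adjusted p = 0.103), and the last was 0.01 with a 95% interval of -0.15 to 0.17. In spots of 1000 to 2500 UMIs the log2 fold change between the end bins was 0.83 (SE 0.22, adjusted p = 0.00231).

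PDHB encodes the beta subunit that pairs with PDHA1 in the same E1 heterotetramer, yet its transcript did not pass the test, and the sections differed. It was measured at 134, 136, 170, 162 and 144 CPM in section 1 and at 104, 143, 155, 157 and 166 CPM in section 2. The end bins of section 1 overlapped (125 to 165 in the MYH7-rich bin against 94.9 to 184 in the MYH7-poor bin), and those of section 2 did not (147 to 187 against 78.5 to 136). The log2 fold change was 0.35 (SE 0.17, unadjusted p = 0.0461, edgeR adjusted p = 0.144), with a 95% interval of 0.01 to 0.68 that lay below the estimate for PDHA1. The difference between the changes of both genes was not tested. None of the 4 steps passed the test for PDHB.

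DLD, the E3 component, lay between them. Its level was 95.3, 166, 175, 212 and 197 CPM in section 1 and 114, 169, 199, 214 and 209 CPM in section 2. The intervals of the end bins did not overlap in either section, with 175 to 221 in the MYH7-rich bin against 62.8 to 139 in the MYH7-poor bin of section 1, and 188 to 232 against 86.7 to 146 in section 2. The log2 fold change was 0.84 (SE 0.17, edgeR adjusted p = 6.87e-06), or 1.79-fold, and no step passed the test, the largest being the first (0.52, SE 0.18, adjusted p = 0.103). In spots of 1000 to 2500 UMIs DLD had 176 and 231 CPM in the MYH7-rich end bin, against 116 and 124 in the MYH7-poor end bin. There the log2 fold change was 0.71 (SE 0.31, adjusted p = 0.0975), so its call was lost as well.

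**Figure D3:**
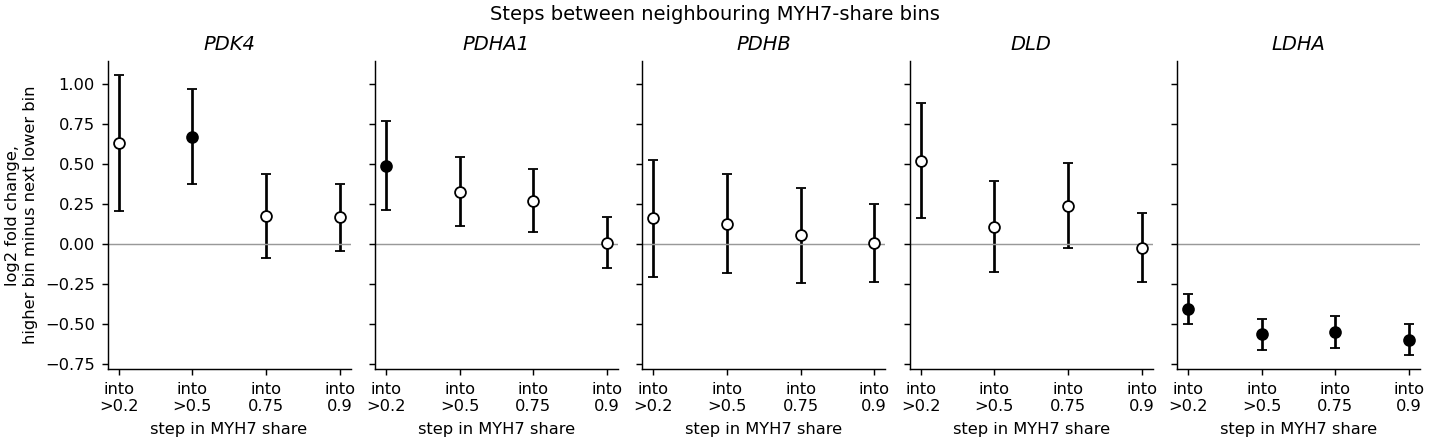
Log2 fold changes between neighbouring MYH7-share bins (higher bin minus next lower bin) for the 5 tested genes, with the limit crossed on the horizontal axis, 95% intervals as bars, and filled points where the edgeR adjusted p was under 0.05. All 4 LDHA points are filled and negative, PDK4 has 1 filled point at the step into the third bin (0.67) and PDHA1 1 at the first step (0.49), and PDHB and DLD have none.

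Ratios within the same spots do not depend on how the sums are scaled, although a ratio of UMIs of different genes also carries their capture efficiency and is read only across bins. For each PDHA1 UMI, LDHA gave 34.6, 16.4, 9.44, 5.0 and 3.35 UMIs along the bins of section 1 and 31.3, 18.4, 9.46, 5.58 and 3.65 UMIs in section 2. The ratio was thus lower at every step in both sections. PDK4 made up 34.4% of PDK4 and PDHA1 UMIs in the MYH7-rich end bin (exact 95% binomial interval 31.3% to 37.6%), against 27.5% (17.5% to 39.6%) in the MYH7-poor end bin of section 1. In section 2 it made up 37.4% (34.6% to 40.3%), against 28.1% (20.8% to 36.3%). The share was higher in the MYH7-rich end bin of both sections, with overlapping intervals, and the difference was not tested. Without the 25% of spots richest in markers of other cell types it was 34.0% (30.7% to 37.4%) against 22.2% (11.2% to 37.1%) in section 1, and 37.5% (34.5% to 40.7%) against 19.4% (12.3% to 28.4%) in section 2, where the intervals did not overlap. In spots of 1000 to 2500 UMIs it was 30.0% against 23.3% in section 1 and 26.9% against 32.1% in section 2, so the sections went opposite ways there.

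Stretches of 250 bases before the RefSeq gene start are shown for the members that were called. Capitals mark matches on either strand to the GC box GGGCGG or the CCAAT box CCAAT. The positions are chr9:75260135-75260384 (minus strand), chrX:15699674-15699923 (plus strand), chr9:107641879-107642128 (plus strand) and chr2:40827285-40827534 (minus strand) of Sscrofa11.1.
PDK4: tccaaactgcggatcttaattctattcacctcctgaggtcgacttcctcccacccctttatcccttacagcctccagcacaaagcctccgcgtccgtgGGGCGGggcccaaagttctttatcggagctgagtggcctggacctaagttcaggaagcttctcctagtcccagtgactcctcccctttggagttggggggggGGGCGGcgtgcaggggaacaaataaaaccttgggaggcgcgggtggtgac
PDHA1: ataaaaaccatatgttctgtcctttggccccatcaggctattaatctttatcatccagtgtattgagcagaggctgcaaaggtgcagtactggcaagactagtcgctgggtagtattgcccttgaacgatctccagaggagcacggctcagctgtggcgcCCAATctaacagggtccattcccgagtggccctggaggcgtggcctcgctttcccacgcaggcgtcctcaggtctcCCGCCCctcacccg
DLD: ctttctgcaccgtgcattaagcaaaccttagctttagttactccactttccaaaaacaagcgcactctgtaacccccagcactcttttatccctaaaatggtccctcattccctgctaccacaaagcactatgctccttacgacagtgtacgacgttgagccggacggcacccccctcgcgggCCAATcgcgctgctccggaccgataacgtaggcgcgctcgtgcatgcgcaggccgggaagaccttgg
LDHA: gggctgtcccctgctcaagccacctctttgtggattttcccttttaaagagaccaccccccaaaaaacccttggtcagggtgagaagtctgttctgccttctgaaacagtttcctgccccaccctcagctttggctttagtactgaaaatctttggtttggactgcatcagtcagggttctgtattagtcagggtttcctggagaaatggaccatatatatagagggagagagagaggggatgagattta

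PDK4 held 2 GC boxes, starting 152 and 50 bases before the gene start. PDHA1 held 1 GC box and 1 CCAAT box, DLD held 1 CCAAT box, and LDHA held neither. Each window lies before the outermost annotated start of its gene. Which start is used in this muscle was not checked, so a window may not be the active promoter. Of 19556 windows of this length before RefSeq gene starts, 45.9% held a GC box and 31.9% a CCAAT box. None of the 4 windows shown matched the TATA box TATAAA (in 9.77% of all windows) or the nuclear receptor half-site AGGTCA (12.2%) on either strand. Nor did they match the forkhead core GTAAACA (2.28%) or the hypoxia response core ACGTG (18.7%). The matches found did not overlap one another. The windows were 58.4% G and C for PDK4, 56.0% for PDHA1, 55.6% for DLD and 47.6% for LDHA. Among the windows not shown, that of PDHB, which was not called, held 3 GC boxes, 1 CCAAT box and 1 hypoxia response core. The chromosome 5 LDHB window held 2 GC boxes, 1 nuclear receptor half-site and 1 hypoxia response core, and the chromosome 2 copy held no match. A link between these matches and the changes along the bins was not tested.

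The wider pyruvate list placed the members among their partners. Of 22 listed genes, 19 were found by symbol and 15 were tested: 9 were higher in the MYH7-rich end bin, 2 were lower and 4 did not pass, with a median log2 fold change of 0.81 beside -0.01 for all genes. DESeq2 called 4 higher and 2 lower, beside 296 higher and 303 lower among all 4820 genes. On the scale of UMIs per spot each of the 15 was higher, PKM by 0.28 and SLC16A3 by 1.08 on the log2 scale, below the all-gene median of 2.12. PKM, the glycolytic pyruvate kinase that makes pyruvate in muscle, had 1009 and 1124 CPM in the MYH7-rich end bin, against 3750 and 3621 in the MYH7-poor end bin (log2 fold change -1.87, SE 0.06, edgeR adjusted p = 5.75e-163). SLC16A3 encodes MCT4, a transporter known for lactate export from glycolytic fibers, and was measured at 38.6 and 37.6 against 81.1 and 70.1 CPM (-1.06, SE 0.25). SLC16A1 encodes MCT1, a transporter known for lactate uptake by oxidative fibers, and was measured at 108 and 98.2 against 28.2 and 41.7 CPM (1.37, SE 0.26). As shares of UMIs these monocarboxylate transporters thus changed in opposite directions, both past the test (adjusted p = 2.89e-04 for SLC16A3 and 1.84e-06 for SLC16A1).

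On the mitochondrial side, MPC2, a subunit of the carrier that brings pyruvate into mitochondria, had 219 and 250 CPM in the MYH7-rich end bin, against 98.8 and 153 in the MYH7-poor end bin (log2 fold change 0.73, SE 0.15). CS, the citrate synthase that takes up acetyl-CoA, had 407 and 423 against 194 and 240 (0.81, SE 0.12). LDHD, the mitochondrial D-lactate dehydrogenase, had 73.1 and 65.4 against 28.2 and 26.5 CPM (1.22, SE 0.30). All 3 passed the edgeR test, with adjusted p of 3.09e-05, 4.87e-10 and 5.44e-04.

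Among enzymes of the list that switch the complex off and on, the kinases PDK1 and PDK2 and the phosphatase PDP1 were called higher by edgeR. The kinase PDK1 had 41.4 and 45.4 CPM in the MYH7-rich end bin, against 21.2 and 11.4 in the MYH7-poor end bin (1.46, SE 0.40, adjusted p = 0.00207). The phosphatase PDP1, which reactivates E1, had 84.1 and 76.3 against 45.9 and 37.9 (0.88, SE 0.26, adjusted p = 0.00590). The remaining 3 calls (the kinase PDK2, 1.12; the E2 subunit DLAT, 0.81; the alanine aminotransferase GPT, 0.58) stand outside the rule for naming and are given for completeness, as were PDK3, PDHX, PDPR and LIAS, with -0.39, 0.64, 0.48 and 1.30, which did not pass. DESeq2 made none of these 5 calls, with adjusted p of 0.0700 for PDK1, 0.100 for PDP1, 0.0869 for PDK2, 0.177 for DLAT and 0.183 for GPT.

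**Figure D4:**
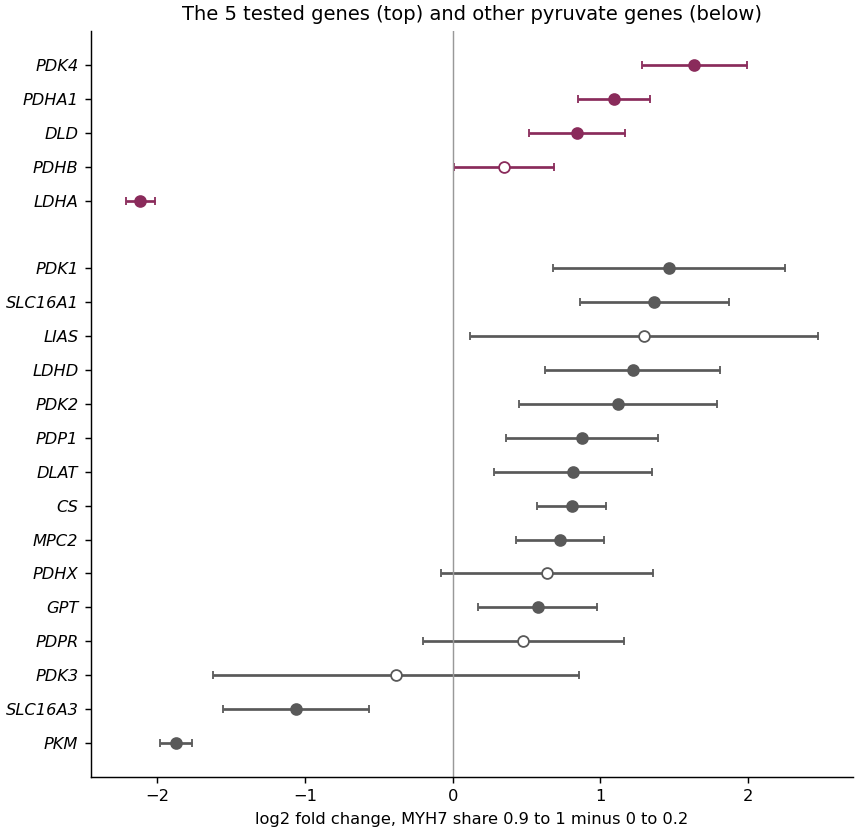
Log2 fold change between the MYH7-rich (0.9 to 1) and MYH7-poor (0 to 0.2) end bins for the 5 tested members (upper block) and the 15 tested genes of the pyruvate list (lower block), with 95% intervals, and filled points where the edgeR adjusted p was under 0.05. PKM and SLC16A3 lie with LDHA on the negative side, and 9 list genes are filled on the positive side.

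DLD also serves the 2-oxoglutarate, branched-chain and glycine complexes. Of 9 listed partners, 8 were in the files and 4 were tested. By edgeR 1 was called, beside 23.6% of all genes tested. It was DLST, the E2 of the 2-oxoglutarate complex (log2 fold change 0.76, SE 0.28, edgeR adjusted p = 0.0328), a call that DESeq2 did not make (adjusted p = 0.240). The list median was 0.03. OGDH, the E1 of the same complex, was 0.21 (SE 0.14, adjusted p = 0.306) and BCKDHA, of the branched-chain complex, was -0.27 (SE 0.22, adjusted p = 0.436).

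Of 18 genes known in mammals as regulators of PDK4 or as genes induced along with it by fasting, 12 were tested. By edgeR 2 were higher, beside 11.3% of all genes tested, and DESeq2 called 1 higher. None was lower by edgeR, at an unadjusted p under 0.05 or by DESeq2, and the median was 0.15. CPT1B, which admits long-chain fatty acids into mitochondria, had 109.6 and 103 CPM in the MYH7-rich end bin, against 38.8 and 30.3 in the MYH7-poor end bin (log2 fold change 1.58, SE 0.26, edgeR adjusted p = 4.98e-08). FBXO32, an atrophy-linked ubiquitin ligase, had 97.2 and 102.4 against 67.0 and 53.0 (0.67, SE 0.23, adjusted p = 0.0177), a call that DESeq2 did not make (adjusted p = 0.140). Transcripts of some regulators were scarce: PPARA held 1 to 10 UMIs in the end bins, and FOXO1 4 to 16. The regulators FOXO1, FOXO3, NR3C1, PPARGC1A and KLF15 were tested and not called by edgeR. Their log2 fold changes were -0.16, -0.60, -0.42, 0.75 and 0.29, and they are given for completeness outside the rule for naming.

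Markers of other cell types moved along the same bins. The counts below stand beside 11.3% of all genes tested called higher and 12.3% lower by edgeR. Of 12 fibroblast and matrix markers, 11 were tested and 8 were lower in the MYH7-rich end bin, and the list summed to 645 and 683 CPM there, against 1390 and 1333 in the MYH7-poor end bin. Of 7 adipocyte markers, 5 were tested and 3 were lower (sums of 456 and 407 against 751 and 507), with LEP at 0 in both bins. None of 7 tested endothelial markers was called by edgeR (2 had an unadjusted p under 0.05) or by DESeq2, with sums of 190 and 211 against 120 and 142. Of 6 smooth muscle and pericyte markers, RGS5 was higher (1.098, SE 0.21) and CNN1 and MYH11 lower (sums of 309 and 341 against 289 and 258), and of 4 tested macrophage markers C1QB was lower (sums of 77.9 and 83.6 against 148 and 144, LYZ at 0). Without the 25% of spots richest in these markers the log2 fold changes were -2.16 for LDHA, 0.90 for PDHA1, 0.57 for DLD and 0.21 for PDHB, with the calls of the first 3 kept and PDHB still not called. Skeletal muscle markers were abundant at both ends, the 4 in the files (ACTA1, CKM, NEB, DES) summing to 106505 and 106737 CPM in the MYH7-rich end bin, against 137796 and 141670.

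The genes whose pattern was most like each member over the 10 sums are given as a description, since the sums share 2 libraries and a common climb in depth. Over 1295 genes with at least 50 CPM on average, PDK4 was closest to LDHD (Pearson r of log2(CPM + 1) 0.995), the pericyte marker RGS5 (0.987) and DVL1 (0.985). PDHA1 was closest to the respiratory chain genes NDUFV1 (0.985), UQCRC1 (0.984) and UQCRQ (0.984), and DLD to GLUL (0.978), GOT2 (0.975) and GSTK1 (0.974). PDHB was closest to HDLBP (0.962), PRDX3 (0.936) and FLII (0.922). LDHA was closest to the fast fiber genes ACTN3 (0.999), MYLPF (0.999) and MYL1 (0.998).

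A second axis was followed inside the fast spots, those with a MYH7 share of 0.5 or less, by the fraction of MYH2 and MYH4 UMIs that came from MYH4, the MYH4 share. Spots with a MYH4 share of 0.2 or more (332 and 489 spots) were set against spots without a MYH4 UMI (391 and 508 spots), in an edgeR fit of 6 sums and 3229 genes. Both groups had a median of 9 myosin UMIs per spot in section 1 and 10 in section 2, so the MYH4 share is coarse. MYH2 and MYH4 are close relatives, and their reads may be shared. LDHA was higher and PDHA1 lower in MYH4-rich spots, and PDK4, PDHB and DLD did not pass. Of all genes tested, 2.6% were called, 1.33% higher and 1.27% lower. The median log2 fold change of the 5 members was -0.16, beside 0.00 for all genes (-6.80e-04).

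LDHA had 5764 and 5891 CPM in MYH4-rich spots, against 4976 and 5070 in MYH4-free spots of sections 1 and 2. The groups did not overlap, and the log2 fold change was 0.23 (SE 0.05, edgeR adjusted p = 0.00246). It was 0.01 when scaled by the number of spots (adjusted p = 0.981), and without the replicate block the adjusted p was 0.131. PDHA1 had 197 and 191 CPM in MYH4-rich spots, against 305 and 277 in MYH4-free spots (-0.56, SE 0.15, adjusted p = 0.0459), a call that was lost without the replicate block (adjusted p = 0.0779) and in spots of 1000 to 2500 UMIs (-0.54, adjusted p = 0.301).

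DLD had 109 and 119 CPM in MYH4-rich spots, against 180 and 162 in MYH4-free spots (log2 fold change -0.54, SE 0.20, edgeR adjusted p = 0.212), and passed with at least 10 myosin UMIs per spot (-0.86, adjusted p = 0.0418) or when scaled by spots (-0.77, adjusted p = 0.0242). PDK4 had 94.8 and 96.7 against 117 and 89.4 CPM, lower in section 1 and higher in section 2, with a log2 fold change of -0.04 and a 95% interval of -0.50 to 0.42. PDHB had 109 and 121 against 152 and 119 CPM (-0.16, 95% interval -0.58 to 0.25).

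**Figure D5:**
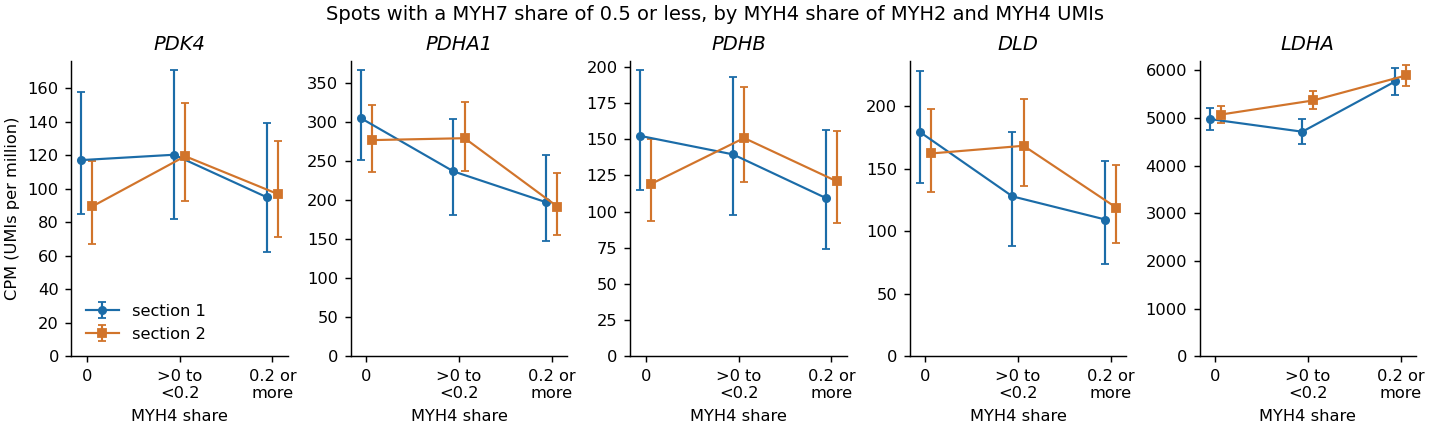
CPM (vertical axes, from 0) of 5 members in fast spots (MYH7 share of 0.5 or less) with a MYH4 share of 0, above 0 to below 0.2, and 0.2 or more, in section 1 (circles) and section 2 (squares), with exact 95% Poisson intervals. LDHA is highest in the MYH4-rich spots of both sections (5764 and 5891) and PDHA1 lowest there (197 and 191).

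The MYH4-rich spots also differed in other ways. Their median MYH7 share was 0.18 and 0.20, against 0.29 and 0.26 in MYH4-free spots, and their median depth 599.5 and 799 UMIs against 791 and 921.5. The fibroblast and matrix list summed to 2079 and 1753 CPM against 1496 and 1192, with 3 of 10 tested markers higher, beside 1.33% of all genes. The part of these differences in the LDHA and PDHA1 results was not tested. Of the pyruvate list, none of 12 tested genes was called by edgeR, beside 2.6% of all genes tested. At an unadjusted p under 0.05 there were 3, all lower (SLC16A3, SLC16A1 and CS), and DESeq2 called 0, with no adjusted p for 11 of the 12. FBXO32, the ligase induced along with PDK4 by fasting, was the only called gene of the PDK4 list, lower in MYH4-rich spots (log2 fold change -1.11, SE 0.28, edgeR adjusted p = 0.0262), and DESeq2 gave none of that list an adjusted p.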

How the data were processed

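Spatial transcriptome counts of 2 sections of pig PM muscle were used. The deposited values were whole-number UMI counts per gene and spot, which the authors made with Space Ranger 1.1 (submitters' processing notes) against Sscrofa11.1, without normalization. Per the methods, the reference lacked the Y chromosome and carried MYH2 and MYH4 models of an older release. The annotation release differs between the labels and the methods. The methods describe the removal of spots by hand, and that list was not used here. The labels mention porcine carrier RNA, with no word on how its reads were treated.

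Of 31780 features, 796 without a symbol were named from a reference table. Spots with over 25% mitochondrially encoded UMIs (8 and 2 spots) and then the 2% with the fewest UMIs (50 and 59) were removed. UMIs were summed per section and bin. Genes in fewer than 15 spots of a section or failing filterByExpr (minimum count 10), haemoglobin genes and the 3 myosins were left out of tests. Tests used edgeR 4.0.16 in R 4.3.3 (TMM, quasi-likelihood, section as block), with DESeq2 1.42.0 as an alternative, and were tested on simulated data. The end-bin fit had 4 residual and 962 prior degrees of freedom, and the MYH4 fit 2 and 25.7. The adjusted p-values cover all genes tested. Exact intervals came from scipy 1.17.1 and alignments from Biopython 1.88. Sequences and positions are from RefSeq (Sscrofa11.1), matched by symbol.

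The members, gene lists, bins and motifs were chosen with earlier results of these data known. Of each related list, genes past the end-bin test were named, at most 8 by smallest p, and for each member the 3 genes with the most similar pattern. Related lists covered pyruvate handling, DLD partners, PDK4 regulators and cotargets, slow and fast contractile genes, and markers of skeletal muscle, fibroblast and matrix, adipocyte, endothelium, smooth muscle and pericyte, macrophage and red blood cell (ALAS2 the only one tested, log2 fold change -0.13, not called). Alternatives were another tool, scaling, filter, block, depth window, bin limits, myosin minimum, spot filter, and leaving out marker-rich spots or 1 section. Other deposited results were not used.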

Additional observations from a re-analysis of the deposited data

How the results depend on the processing

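Between the MYH7-rich and MYH7-poor end bins, 75 of the 87 values recomputed under the alternatives kept their direction and side of the threshold, or stayed near their main count. Values with 1 section left out have no test, and counted as kept when nearer the main value than the SD of both single-section values. The main value lay between those for each tested member, so this condition was easily met. In spots of 1000 to 2500 UMIs, PDK4 (log2 fold change 0.72, edgeR adjusted p = 0.142) and DLD (0.71, adjusted p = 0.0975) lost their calls, and 200 genes were called higher and 159 lower, with 1990 genes tested. Scaled by the number of spots, PDHB passed the test (2.48), LDHA changed sign (0.032, adjusted p = 0.680), and 4580 genes were called higher and 11 lower, the median of all genes moving to 2.12. Main counts were 545 higher and 591 lower. DESeq2 called 296 higher and 303 lower, and without a filter on low genes 355 were lower. With 1 section left out, the log2 fold change was 1.62 to 1.68 for PDK4, 1.06 to 1.16 for PDHA1, 0.05 to 0.55 for PDHB, 0.76 to 0.99 for DLD and -2.21 to -2.04 for LDHA, as values without a test. Without the replicate block no call of a member changed between the end bins (LDHA -2.12, PDK4 1.63), and these values set 2 sections, not pairs, side by side.

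Among fast spots, 30 of the 45 recomputed values were kept by the same rule. Values to which DESeq2 gave no adjusted p counted as kept. PDHA1 (-0.56, edgeR adjusted p = 0.0779) and LDHA (0.23, adjusted p = 0.131) lost their calls without the replicate block. In that setting 15 genes were higher and 26 lower, against 43 and 41. In spots of 1000 to 2500 UMIs, PDHA1 was -0.54 (adjusted p = 0.301), PDHB changed sign to 0.19 (adjusted p = 0.929), and 18 genes were higher and 16 lower. Scaled by spots, LDHA was 0.0057 (adjusted p = 0.981), DLD passed at -0.77, and 4 genes were higher and 121 lower. With at least 10 myosin UMIs DLD passed at -0.86. DESeq2 called 23 higher and 26 lower, and gave PDK4, PDHA1, PDHB and DLD no adjusted p. With 1 section left out the values were -0.29 to 0.14 for PDK4, -0.62 to -0.51 for PDHA1, -0.47 to 0.04 for PDHB, -0.71 to -0.42 for DLD and 0.22 to 0.24 for LDHA. With at least 10 myosin UMIs the first step was 0.51 for PDHA1 (adjusted p = 0.0787) and -0.0074 for PDHB (adjusted p = 0.992). The LDHA share of LDHA and LDHB row UMIs moved to 100% in the second bin of both sections and the last 2 bins of section 2 in spots of 1000 to 2500 UMIs, and in the second bin of section 1 without marker-rich spots. Where no cause is given, the cause was not tested.

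PDK4 and DLD rested on few UMIs at the MYH7-poor end (19 and 27 UMIs in section 1). In spots of 1000 to 2500 UMIs the PDK4 estimate was itself smaller (0.72 against 1.64), and the cause was not tested. Any statement on LDHB is limited by the unknown locus of its row as well as by its few UMIs.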
